A study of Mus musculus with 11 samples.

Results

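The mitochondrial ribosomal protein genes were taken as every gene whose symbol begins with Mrpl or Mrps followed by a number. The rule used names alone and found 78 of the 18667 genes in the expression tables of the mouse cochlea. Of these, 51 encode proteins of the large ribosomal subunit (30 with a bacterial counterpart and 21 specific to mitochondria, among them Mrps18a and Mrps30), and 26 encode proteins of the small subunit (16 and 10). Proteins were classed by their place in the ribosome, so Mrps18a and Mrps18b, which are related in sequence to bacterial S18 but do not take its place, count as specific to mitochondria, and Mrps18c as the counterpart. The remaining gene, Mrps36, encodes a protein that is no longer counted as a ribosomal subunit and is now placed in the 2-oxoglutarate dehydrogenase complex.

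RNA-Seq was performed on whole cochleae of 2-month-old C57BL/6J mice, 5 Atf6+/+ and 6 Atf6-/- libraries, to find which transcripts differ in the cochlea without ATF6, a sensor of protein misfolding in the ER. The Atf6-/- mice carry a premature stop codon in the germ line, so a direct effect in 1 cell type cannot be told apart from an effect on the whole animal, and both genotypes share the C57BL/6J Cdh23 allele that causes hearing loss with age. The labels give a genotype and a number for each library but no animal. The paper describes the libraries as individual cochleae and states that both sexes were in every group of its studies. The P values measure the spread between these libraries. In whole tissue, fewer cells of a type and less RNA per cell cannot be told apart.

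The mitochondrial ribosome translates the proteins encoded by mitochondrial DNA, all of them core parts of the respiratory chain and ATP synthase. Its own proteins are encoded in the nucleus, translated in the cytosol and imported. The large subunit forms peptide bonds, and the small subunit binds and decodes the mRNA. The cochlea depends on this supply of respiratory chain proteins, as the stria vascularis and hair cells use much ATP, and inherited defects of several of these ribosomal proteins in humans include sensorineural hearing loss.

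The start regions of these genes are shown first because many members share letters in them that most genes lack. RefSeq windows from 250 bases before to 50 bases after each listed start (GRCm38.p6) were found for 69 of the 78 members. A gene was counted if any of its windows held the letters. The ETS letters CCGGAAG occurred on either strand in 26 members (37.7%), against 16.9% of 12726 tested genes with a window. Counted by window, they occurred in 34.7% of 75 member windows, against 8.86% of all 32851 windows. The NRF1 letters (GCGC, any 2 bases, then GCGC), named after a factor known to act on nuclear genes for mitochondrial proteins, occurred in 14 members (20.3%, against 12.9% of tested genes). The letters CCAAT occurred in 27 (39.1%, against 42.6%), and TGATGNAA, the C/EBP-ATF composite letters tied to the ATF4 branch of the stress response, occurred in 0 of 69 (against 2.96%). None of these letter strings contains another, and a match or its absence describes these windows and not binding. The 100 bases before the first listed start are given for Mrpl11, the member with the smallest P value between genotypes, which holds no ETS letters there. They are also given for 3 of the 14 members that hold those letters there, shown in capitals.
Mrpl11 (chr19:4962206-4962305, plus strand): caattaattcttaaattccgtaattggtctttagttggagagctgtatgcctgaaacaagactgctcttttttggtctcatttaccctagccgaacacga
Mrpl22 (chr11:58171564-58171663, plus strand): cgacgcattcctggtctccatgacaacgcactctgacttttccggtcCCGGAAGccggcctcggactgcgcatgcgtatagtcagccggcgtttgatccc
Mrpl51 (chr6:125192100-125192199, plus strand): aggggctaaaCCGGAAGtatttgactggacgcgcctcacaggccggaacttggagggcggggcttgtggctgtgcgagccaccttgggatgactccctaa
Mrps22 (chr9:98601680-98601779, minus strand): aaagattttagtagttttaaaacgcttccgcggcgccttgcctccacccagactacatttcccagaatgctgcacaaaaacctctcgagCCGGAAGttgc

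All 78 genes were expressed in every library. Levels are given as FPKM, a fragment count scaled to transcript length and to the total mapped in the library. Mean levels over the 11 libraries ran from 3.47 FPKM for Mrps25 to 141 FPKM for Mrps21, a 40.6-fold range, with a median of 28.3 FPKM against 8.64 FPKM over the 16169 genes tested. Of the members, 72 lay above that median gene. The coefficient of variation of a gene over the 11 libraries was 4.04% (Mrps30) to 15.4% (Mrps18c), with a median of 9.0%. The small subunit genes had a median of 25.2 FPKM and the large subunit genes 32.6 FPKM. The 10 small subunit genes specific to mitochondria had the lowest median of the role groups, 16.6 FPKM, against 27.0, 30.6 and 33.1 FPKM in the other groups of more than 1 gene.

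The 3 most abundant transcripts were also among the shortest. Mrps21, which encodes the counterpart of bacterial S21, measured 140.20, 137.02, 139.22, 149.19 and 151.79 FPKM in the Atf6+/+ libraries and 142.93, 140.27, 153.75, 145.67, 118.62 and 128.83 FPKM in the Atf6-/- libraries. Only the last 2 Atf6-/- libraries lay below every Atf6+/+ library. Mrpl42, a large subunit protein specific to mitochondria, averaged 144.5 ± 12.3 (SD, n = 5) and 134.1 ± 13.8 FPKM (n = 6). Mrpl52, of the same class and with the shortest annotated transcript of all members (418 bases), averaged 121.9 ± 17.5 and 118.1 ± 14.5 FPKM. The groups overlapped for all 3 genes. At the other end, Mrps25 (3.40 ± 0.42 and 3.52 ± 0.34 FPKM), Mrpl17 (4.64 ± 0.49 and 4.69 ± 0.12 FPKM) and Mrpl19 (5.41 ± 0.46 and 5.11 ± 0.37 FPKM) had transcripts of 6073, 7300 and 5000 bases. Exons of Mrps25 and Mrpl19 overlap those of Nr2c2 and Gcfc2 on the opposite strand by 3533 and 1962 bases.

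Across the 78 members, mean FPKM was lower in genes with longer transcripts (Spearman rho = -0.56 across genes, which are not independent replicates and share the same 11 libraries). Transcript lengths were taken from the GENCODE annotation of GRCm38 and may differ from those behind the FPKM values. The members were short, with a median of 1253 bases against 2818 bases over the tested genes, and 28 of 78 (35.9%) were under 1000 bases, against 7.68% of tested genes.

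**Figure D1:**
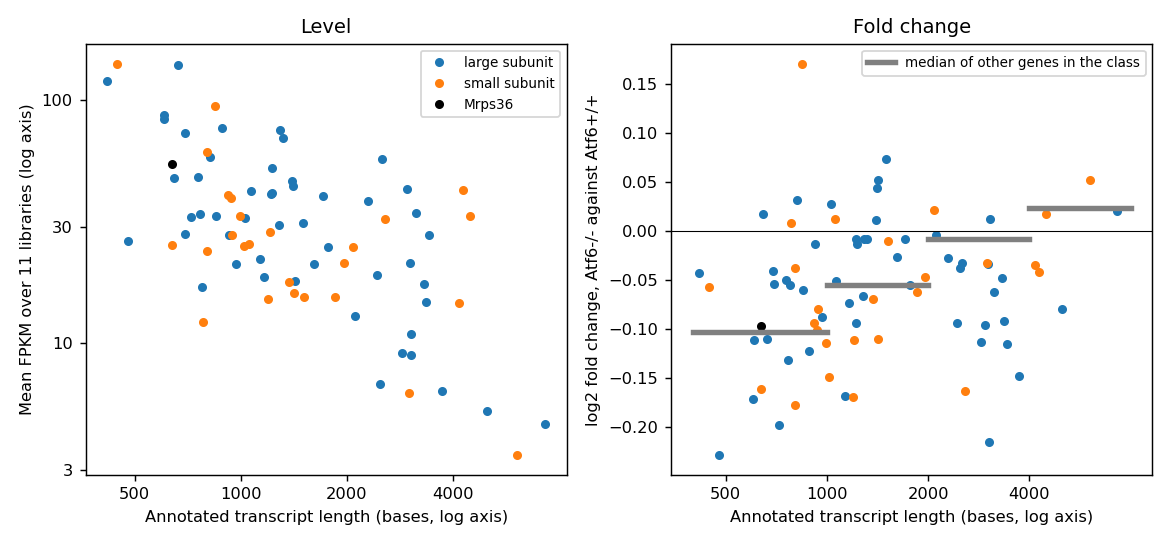
Mean FPKM over 11 libraries (left) and log2 fold change of Atf6-/- against Atf6+/+ (right) of the 78 genes by annotated transcript length, each point 1 gene colored by subunit, with grey lines for the median fold change of other genes in 4 length classes (the outer classes have no outer bound). Levels run from 3.47 to 141 FPKM and are highest in the shortest transcripts, and the grey medians climb from -0.10 under 1000 bases to 0.024 at 4000 bases or longer.

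Between genotypes the differences were small and no member passed the test. Of the 78 genes, 63 had a log2 fold change below 0 in Atf6-/- cochleae, against 54.7% of all genes tested. After rescaling to TPM, which shifts all genes of a library alike, the count was 36, against 37.3% of all genes, and after the trend with length and GC content was removed from each library it was 24, against 43.0%. The members' median minus that of all genes was -0.041 as deposited, -0.039 with TPM and 0.014 with the trend removed. The median log2 fold change was -0.054, beside -0.013 over all genes tested, and single genes ranged from -0.23 (Mrpl33) to 0.17 (Mrps6). With limma and Benjamini-Hochberg adjustment over all 16169 genes, 0 members had an adjusted P under 0.05 (the smallest was 0.368), where 11 of all genes did (0.0680%). At an unadjusted P of at most 0.05, 6 members were lower and 0 higher, against 5.37% of all genes lower and 4.48% higher. No member had groups that did not overlap, as 0.606% of all genes did in the lower and 0.643% in the higher direction.

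These counts depended on the libraries and the scaling. The number of lower members at the unadjusted P was 3 without Atf6+/+ replicate 4 (4.77% of all genes in that fit) and 3 without replicate 5 (6.01%). It was 2 without Atf6-/- replicate 1 (4.63%), 2 without replicate 5 (3.83%), 2 without replicate 6 (4.15%) and 10 without replicate 2 (5.79%). With TPM, 1 member was lower and 1 higher, where 2.71% of all genes were lower and 8.60% higher. With the length and GC trend removed, 1 was lower and 9 higher, where 3.30% of all genes were lower and 7.67% higher. The SE of the log2 fold change was 0.044 to 0.128 (median 0.074), and the 95% intervals of all 78 genes lay between -0.44 and 0.41.

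**Figure D2:**
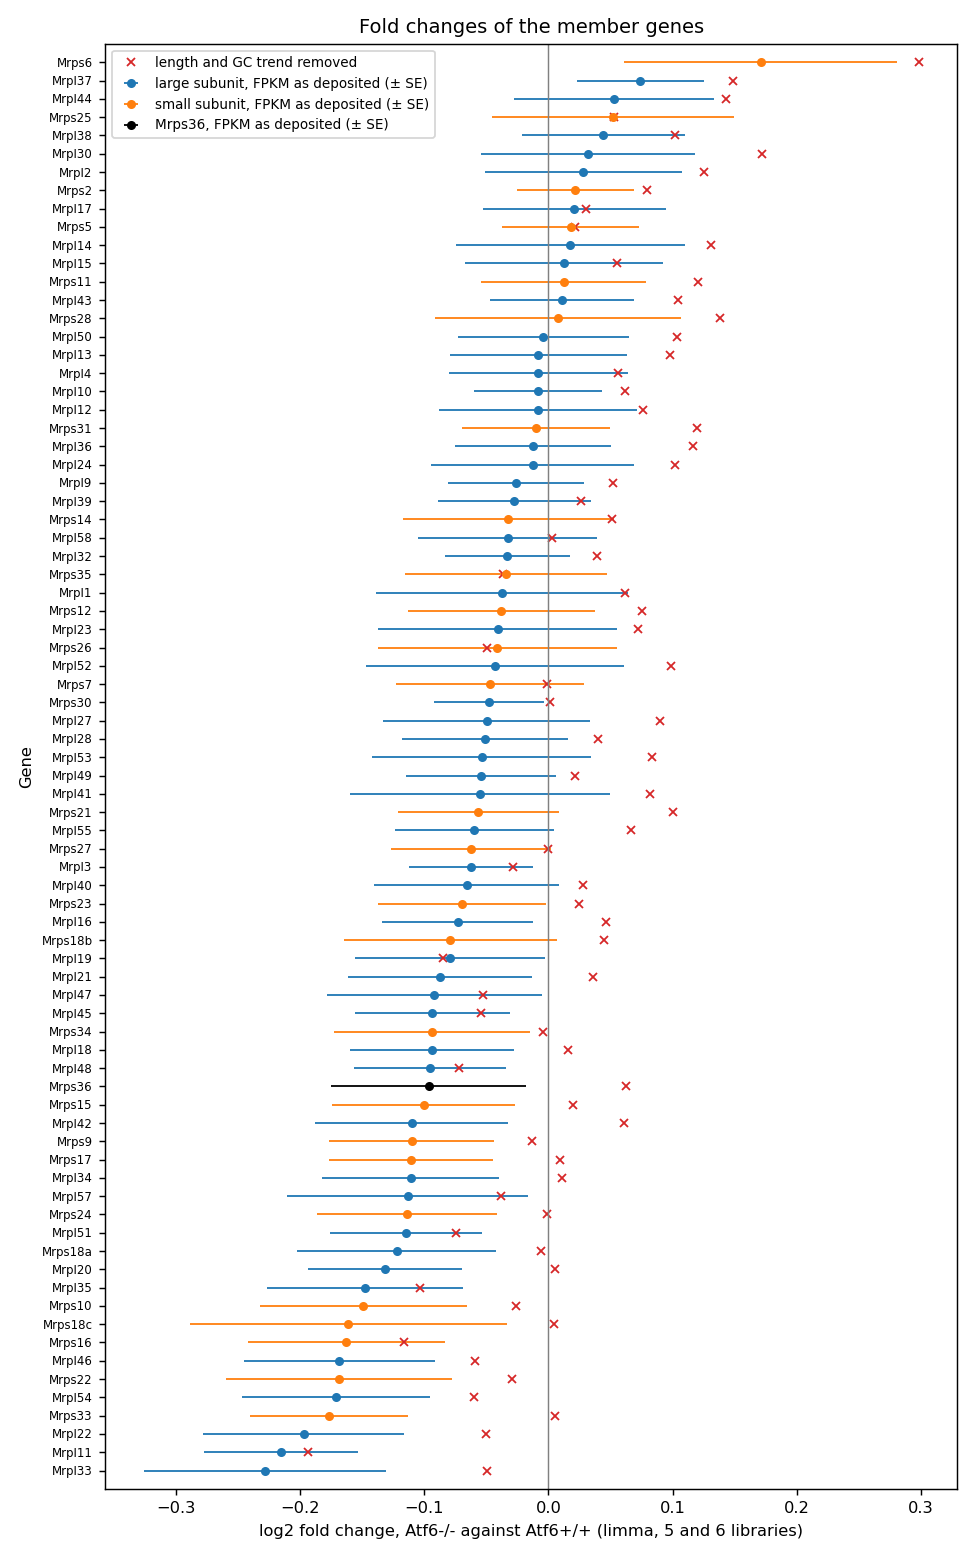
Log2 fold change of each of the 78 genes in Atf6-/- (n = 6) against Atf6+/+ (n = 5) cochleae, sorted, with dots and bars for the estimate and its SE from limma on log2(FPKM + 0.1), colored by subunit, and crosses for the estimate after the length and GC trend was removed. Dots lie below 0 for 63 genes and crosses for 24, and Mrpl11 stays near -0.2 by both.

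In the large subunit, 42 of 51 genes were below 0 (median -0.051), against 54.7% of all genes. This subunit holds 51 of the 78 members, and 5 of the 6 genes at the unadjusted P belonged to it, where 5.37% of all genes were lower. A difference between the subunits was not tested. Mrpl11, the counterpart of bacterial L11 at the base of the stalk where translation factors bind, measured 11.48, 10.49, 11.54, 12.89 and 12.47 FPKM in Atf6+/+ and 10.19, 10.64, 10.59, 10.24, 9.32 and 9.70 FPKM in Atf6-/- cochleae. Of the Atf6-/- libraries, 4 lay below every Atf6+/+ library, and the other two exceeded only Atf6+/+ replicate 2. The means were 11.8 ± 0.9 and 10.1 ± 0.5 FPKM, a log2 fold change of -0.22 (SE 0.062, 95% interval -0.35 to -0.08), with an unadjusted P of 0.00451, an adjusted P of 0.368 by limma, and P = 0.00649 in the exact two-sided permutation test over the 11 libraries (462 arrangements), where the smallest possible value is 0.00216. Mrpl11 was the only member lower at the unadjusted P with TPM (-0.16) and with the length and GC trend removed (-0.19), and it was lower at that P in all 11 fits that left out 1 library, as was Mrps33 of the small subunit. It did not pass the unadjusted P with the bone marrow score, a covariate described with the marker genes (-0.18), or with the replicate block and trend removal together (-0.18). Its transcript, at 3045 bases, was longer than that of most members.

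The other 4 large subunit genes at the unadjusted P had transcripts of 478 to 1134 bases. Mrpl33, the counterpart of bacterial L33, measured 28.15, 26.00, 32.18, 24.47 and 32.49 FPKM in Atf6+/+ and 24.39, 26.45, 28.12, 24.72, 19.72 and 23.25 FPKM in Atf6-/- cochleae (log2 fold change -0.23, SE 0.097). Mrpl22, the counterpart of the bacterial protein that lines the exit tunnel, averaged 35.4 ± 2.1 FPKM (n = 5) against 31.0 ± 3.9 FPKM (n = 6) (-0.20). Both genes overlapped between groups, and their exact permutation P values were 0.0758 and 0.0671. Mrpl54, specific to mitochondria, averaged 91.8 ± 10.5 and 81.4 ± 6.1 FPKM (-0.17), and Mrpl46, of the central protuberance, 23.6 ± 1.2 and 21.1 ± 2.5 FPKM (-0.17), with exact permutation P values of 0.0563 and 0.0779. The adjusted P of these 4 genes by limma was 0.475 to 0.505. With the trend removed, the fold changes of these 4 genes lay closer to 0 than before, as the plot of fold changes by gene shows, and none passed the unadjusted P.

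Further large subunit genes that were named by rank of P were lower, as most members were, without passing the unadjusted P with genotype as the only term. Mrpl20 and Mrpl51 were lower at that P with the bone marrow score, and Mrpl20 was 0.0053 with the length and GC trend removed. Mrpl20, the counterpart of bacterial L20, averaged 35.8 ± 2.3 and 32.7 ± 2.7 FPKM (log2 fold change -0.13), Mrpl35 6.74 ± 0.63 and 6.07 ± 0.50 FPKM (-0.15), and Mrpl51 29.2 ± 2.5 and 26.9 ± 1.4 FPKM (-0.11). Mrpl37, specific to mitochondria, had the highest value in the large subunit at 0.074, from 30.3 ± 2.3 and 31.8 ± 1.1 FPKM. It reached an unadjusted P of 0.0150 with TPM (0.13) and 0.00353 with the length and GC trend removed (0.15) by limma, while 8.60% and 7.67% of all genes were higher at that P under the same settings. Mrpl37 was named after its values were seen.

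In the small subunit, 20 of 26 genes were below 0 (median -0.059), against 54.7% of all genes, and 1 was lower at the unadjusted P, against 5.37%. Mrps33, a small protein specific to mitochondria, measured 23.34, 25.26, 27.70, 25.59 and 25.26 FPKM in Atf6+/+ and 23.65, 24.27, 24.24, 22.40, 20.31 and 20.25 FPKM in Atf6-/- cochleae. Here 3 Atf6-/- libraries lay below every Atf6+/+ library, and the other three above only Atf6+/+ replicate 1. Its log2 fold change was -0.18 (SE 0.064, limma unadjusted P = 0.0169, adjusted P = 0.431, exact permutation P = 0.0195). Its value was 0.0052 once the length and GC trend was removed. Its transcript has 803.5 bases, the median of its annotated forms.

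Mrps16, Mrps22 and Mrps10 were the other small subunit genes named by rank of P. Mrps16, the counterpart of bacterial S16, averaged 34.2 ± 3.8 and 30.5 ± 2.7 FPKM (log2 fold change -0.16). Mrps22, specific to mitochondria, averaged 16.2 ± 1.6 and 14.4 ± 1.8 FPKM (-0.17), and Mrps10, the counterpart of bacterial S10, 26.4 ± 1.8 and 23.9 ± 3.0 FPKM (-0.15). None passed the unadjusted P.

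Mrps6, the counterpart of bacterial S6, had the highest fold change of all members and was named after its values were seen. It measured 106.07, 92.41, 75.32, 70.26 and 96.86 FPKM in Atf6+/+ and 101.33, 80.63, 112.51, 95.93, 100.22 and 100.89 FPKM in Atf6-/- cochleae. Atf6+/+ replicates 3 and 4 were below every Atf6-/- library, and the other Atf6+/+ libraries overlapped with them. The log2 fold change was 0.17 (SE 0.110, limma unadjusted P = 0.146), and it depended on the setting: it was 0.30 with the length and GC trend removed, -0.0016 once a bone marrow score was added as a covariate, 0.24 without Atf6+/+ replicate 1 and 0.093 without Atf6+/+ replicate 4. It passed the unadjusted P with the trend removed and without Atf6+/+ replicate 1. Mrps6 shares exon sequence on the same strand with Slc5a3, the sodium/myo-inositol cotransporter, by 159 bases. Slc5a3 averaged 10.6 ± 3.2 and 12.3 ± 3.5 FPKM, with a log2 fold change of 0.23 (adjusted P = 0.764 by limma), and was lowest in Atf6+/+ replicate 4, at 5.39 FPKM.

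Members tied to hearing or present as several homologues lay close to 0 or within their spread. The human counterparts of Mrps2, Mrps7 and Mrpl50 are linked to sensorineural hearing loss. Mrps2 averaged 24.6 ± 1.5 and 24.9 ± 0.7 FPKM (log2 fold change 0.022, SE 0.047), Mrps7 21.7 ± 2.4 and 21.0 ± 1.7 FPKM (-0.047, SE 0.076), and Mrpl50 13.0 ± 1.5 and 12.9 ± 0.6 FPKM (-0.0041, SE 0.069). Of the 3 homologues of bacterial S18, Mrps18a was the most abundant and the levels of Mrps18b and Mrps18c overlapped. Mrps18a, which sits in the large subunit, averaged 79.9 ± 7.3 and 73.5 ± 7.7 FPKM (-0.12, SE 0.080). Mrps18b averaged 28.7 ± 3.1 and 27.2 ± 3.0 FPKM (-0.079, SE 0.086). Mrps18c, the most variable member, averaged 26.7 ± 2.6 and 24.2 ± 4.7 FPKM (-0.16, SE 0.128), and measured 16.90 FPKM in Atf6-/- replicate 6, its lowest library. Without that library its value was -0.063. Mrps36, outside the ribosome and named after its values were seen, averaged 56.5 ± 3.7 and 53.0 ± 6.1 FPKM (-0.096, SE 0.078), and its value was 0.063 with the length and GC trend removed.

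**Figure D3:**
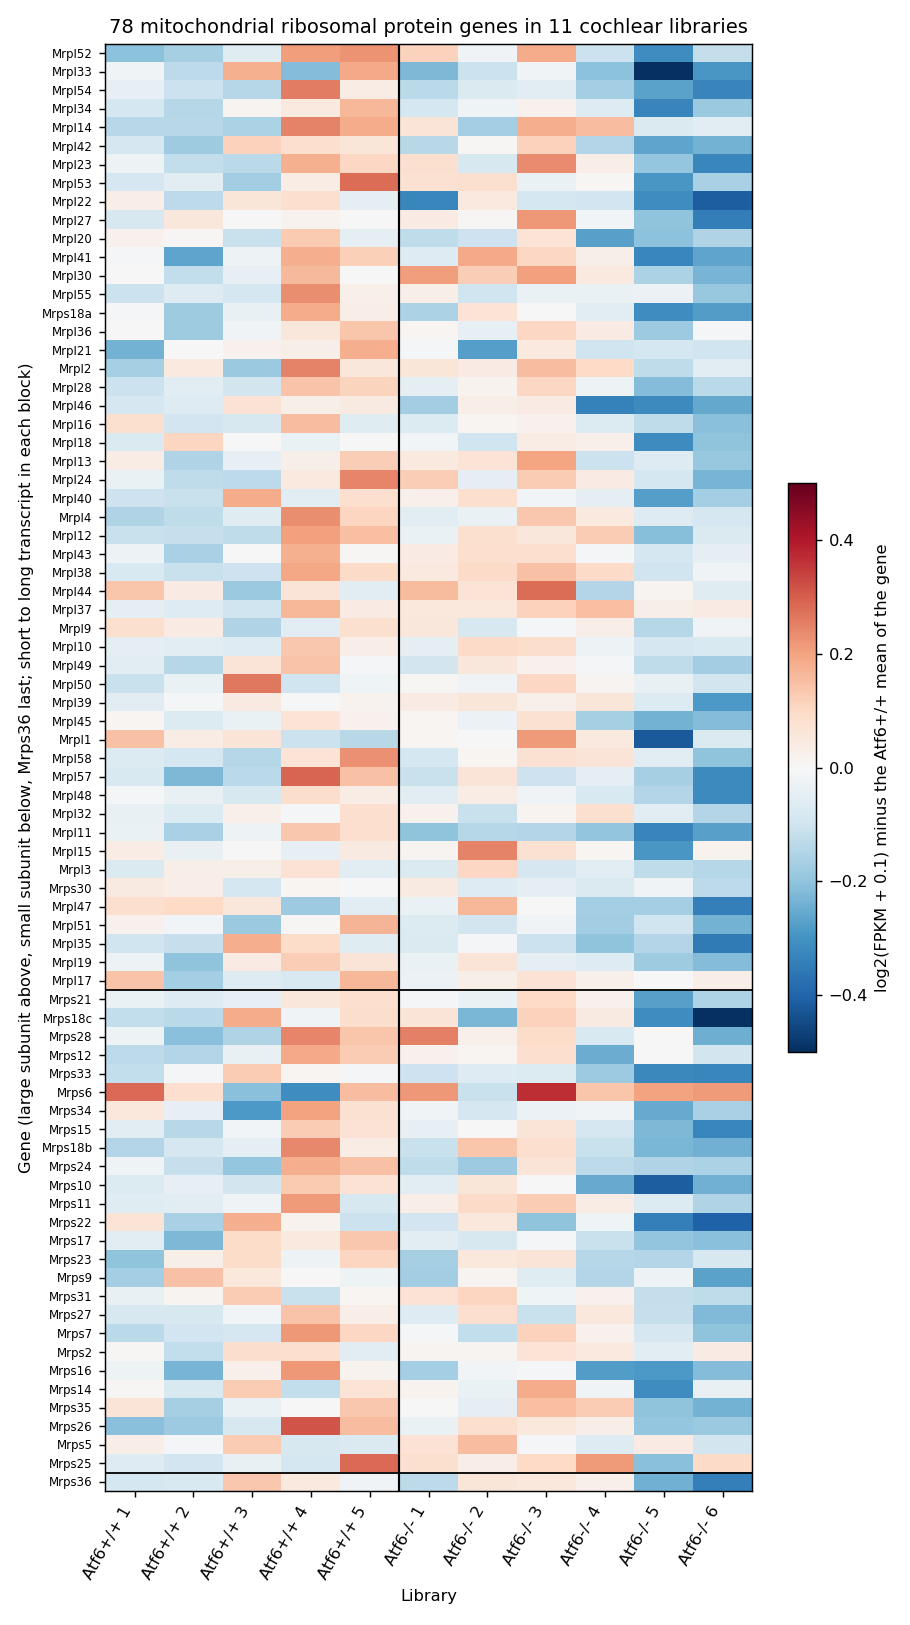
Difference of log2(FPKM + 0.1) from the Atf6+/+ mean of each gene, for 78 genes (vertical axis, by subunit and then transcript length) in 5 Atf6+/+ and 6 Atf6-/- libraries (horizontal axis), blue below and red above, with the scale ending at 0.5 in each direction. Atf6-/- replicates 5 and 6 are blue for 74 and 72 genes, and Atf6+/+ replicates 4 and 5 are red for 60 genes each.

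The members moved together from library to library. Within genotypes, the correlation of pairs of members over libraries had a median of 0.47, and 89.3% of 3003 pairs were above 0. These pairs share the same 11 libraries, and the correlation of pairs of other genes was not computed. With the length and GC trend removed, the median of the member pairs was 0.23 and 72.2% of them were above 0. The Atf6-/- group did not move as one. As a difference from the Atf6+/+ mean of each gene, the median over the 78 genes was -0.016, 0.011, 0.064 and -0.024 (log2) in Atf6-/- replicates 1 to 4, and -0.17 and -0.19 in replicates 5 and 6. In the Atf6+/+ libraries it was -0.046, -0.092, -0.035, 0.076 and 0.065. Atf6-/- replicates 1 to 4 thus lay within the Atf6+/+ range, and replicates 5 and 6 below it. Replicates 5 and 6 were the lowest library for 57 of 78 members, and Atf6+/+ replicates 4 and 5 were the highest for 46. Without Atf6-/- replicates 5 and 6, 37 of 78 members were below 0 and the median was 0.00087, against 50.2% and -0.00055 over all genes. Without Atf6+/+ replicates 4 and 5, 45 were below 0 and the median was -0.014, against 54.5% and -0.016. Both settings were added after the values were seen. They leave out the libraries where members were most often lowest or highest, so a smaller difference was built into the choice.

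Short transcripts of other genes varied in the same libraries. Over genes under 1000 bases that were not members, the median difference from the Atf6+/+ mean was -0.27 and -0.19 (log2) in Atf6-/- replicates 5 and 6, between -0.086 and 0.066 in the other 4 Atf6-/- libraries, and 0.098 and 0.113 in Atf6+/+ replicates 4 and 5. Over other genes of 4000 bases or longer it was 0.053 and 0.059 in Atf6-/- replicates 5 and 6, and -0.096 and -0.052 in Atf6+/+ replicates 4 and 5. The low libraries for members were thus low for short transcripts of other genes and not for long ones. Atf6-/- replicate 2 was an exception, as its median was -0.086 for other short transcripts and 0.011 for the members. Across other genes, the correlation of the difference with length ran from -0.31 in Atf6+/+ replicate 4 to 0.33 in Atf6-/- replicate 5. The length of RNA fragments and the integrity of the RNA were not analysed here.

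**Figure D4:**
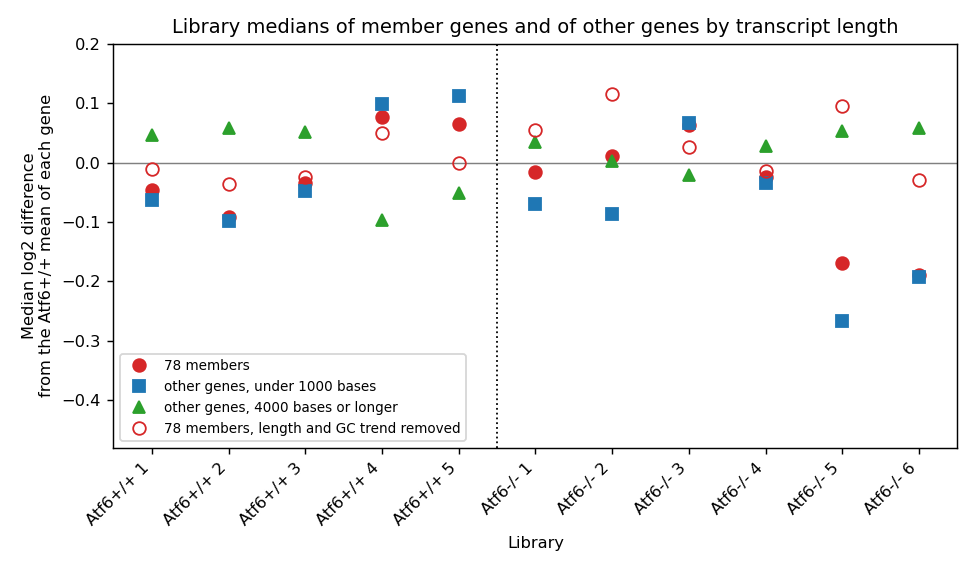
Median log2 difference from the Atf6+/+ mean of each gene, in each of the 11 libraries, for the 78 members (filled circles), other genes under 1000 bases (squares), other genes of 4000 bases or longer (triangles), and the members with the length and GC trend removed (open circles). Members and other short genes are lowest in Atf6-/- replicates 5 and 6, where long genes lie above 0, and the open circles lie between -0.036 and 0.115 in all libraries.

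Among other genes the median fold change was higher in each longer class, an order that the members did not keep. For other genes it was (log2) -0.10 under 1000 bases (1196 genes), -0.055 from 1000 to under 2000 (3613 genes), -0.0083 from 2000 to under 4000 (6567 genes) and 0.024 at 4000 or longer (4478 genes). Among members it was -0.083 (28 genes), -0.036 (26 genes), -0.055 (18 genes) and -0.0083 (6 genes). In each of the 2 shorter classes the members' median lay nearer to 0 than that of other genes, and in each of the 2 longer classes it lay lower. Of the members under 1000 bases, 4 were lower at the unadjusted P (14.3%, against 10.3% of other genes of that length). From 1000 to under 2000 bases 1 was (3.85%, against 8.50%), and from 2000 to under 4000 bases 1 was (5.56%, against 4.81%). At 4000 bases or longer 0 were, against 2.30%. With the length and GC trend removed, the members' median was 0.033, beside 0.019 over all genes, and the 9 genes higher at the unadjusted P were Mrpl37, Mrpl38, Mrpl36, Mrpl30, Mrps21, Mrpl14, Mrpl2, Mrps6 and Mrps31, with values of 0.10 to 0.30. In that fit too, 0 members had an adjusted P under 0.05 by limma, against 0.0942% of all genes, and with TPM likewise 0, against 0.0804%.

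Other genes that make or serve the mitochondrial ribosome were near 0 as well. The 5 subunits with other names, such as Dap3 and Ptcd3, were all 5 below 0, with a median log2 fold change of -0.052. The 23 assembly factors and rRNA modifiers had a median of -0.038 with 15 below 0, and the 15 translation factors tested of 16 listed had a median of -0.018 with 11 below 0. None of these genes passed the unadjusted P in either direction. The 82 cytosolic ribosomal protein genes, which are also short (median 777.5 bases), had a median of -0.073 with 73 below 0 and 0 at the unadjusted P, and a median of 0.058 with the trend removed. The 86 nuclear genes for respiratory chain subunits (median 731.5 bases) had a median of -0.126 with 86 below 0 (against 54.7% of all genes) and 13 lower at the unadjusted P (against 5.37% of all genes), and a median of 0.00099 over the 84 genes with a transcript length once the trend was removed.

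Markers in 6 of 13 cell type lists differed between genotypes at the unadjusted P, where 5.37% of all genes were lower and 4.48% higher. In the macrophage, bone, skeletal muscle, neuron, Schwann cell, hair cell and supporting cell lists 0 did. All 6 macrophage, 5 bone and 5 neuron markers were nevertheless below 0, as were 54.7% of all genes. Atf6 itself measured 8.25 to 10.56 FPKM in Atf6+/+ and 3.83 to 4.59 FPKM in Atf6-/- libraries. The summed level of 7 erythroid markers was 4826 to 46392 FPKM in Atf6+/+ and 2870 to 9374 FPKM in Atf6-/- libraries, with all 7 lower and 6 at the unadjusted P. That of 8 neutrophil markers was 273 to 3386 and 111 to 1294 FPKM, with all 8 lower and 4 at the unadjusted P, and that of the 5 B cell markers found of 6 was 7.83 to 26.0 and 5.41 to 10.5 FPKM, with all 5 lower, 3 at the unadjusted P and Vpreb1 at 0 in some libraries. The 2 outer hair cell markers, Slc26a5 and Ocm, summed to 17.4 to 51.0 and 35.7 to 110 FPKM, both higher at the unadjusted P, while the 4 general hair cell markers summed to 33.5 to 84.5 and 48.1 to 68.5 FPKM. The fibrocyte markers Coch and Otos, present in every library of this tissue, summed to 3023 to 4550 and 3949 to 5677 FPKM, with 1 of 2 at the unadjusted P, and 1 of the 4 stria vascularis markers was at that P. When a score from the erythroid, neutrophil and B cell lists was added as a covariate, 61 members were below 0 (median -0.063), against 54.2% of all genes (median -0.014). In that fit 3 members were lower at the unadjusted P (Mrpl51, Mrps30 and Mrpl20), against 3.14% of all genes. The part of the hair cell, stria and fibrocyte markers in the members' values was not tested.

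Some members share sequence with other genes. Exons of 2 members overlap a protein-coding gene on the same strand (Mrps6, and Mrpl53 with Gm42688) and those of 15 overlap one on the opposite strand. The libraries were stranded, but whether the counting used strand was not given in the sources used here. Mrps36 has 3 annotated pseudogenes named after it, and Mrpl23 and Mrpl48 have 1 each, so the levels of these members are less certain.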

How the data were processed

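Whole-cochlea RNA was made into DNBSEQ stranded mRNA libraries. Per the submitters' processing notes, the authors aligned reads to GRCm39 with HISAT2 2.0.4, deposited FPKM values from RSEM 1.2.12 (the methods give another RSEM version), and used DESeq2 1.4.5, whose output was not used here. FPKM have 2 decimals. The methods state 1 sequencing target for all samples, but read counts per library were not used, so the counting error of a value is unknown. FPKM summed to 462000 to 537930 per library.

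FPKM + 0.1 was log2-transformed, which understates changes of low genes. Genes averaging 0.1 FPKM or more were fitted with limma 3.58.1 (R 4.3.3, mean-variance trend, two-sided) with genotype as the only term and Benjamini-Hochberg adjustment over 16169 genes. For single genes, an exact permutation test over libraries was added. In every library, each gene's deviation from its mean over the libraries was fitted with smooth curves of length and GC (mgcv 1.9.3, basis size 6). The fitted value was subtracted, for 15932 genes with a GENCODE M21 (GRCm38) transcript. Coordinates are of GRCm38.p6 RefSeq windows and were not converted. On simulated data, 85% to 87% of 200 genes changed by 1 (log2) were recovered, with 5.56% to 7.94% of calls false.

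Genes named by rule are the 12 members with the smallest P and the 3 with the highest and the 3 with the lowest mean. Mrps2, Mrps7, Mrpl50 and the S18 homologues were also named by rule. Mrpl37, Mrps6 and Mrps36 were added after their values were seen. Any other member given by symbol was listed for its values or annotation and is not counted among the named genes. Members and lists were chosen with earlier results of these data known. Alternatives were other pseudocounts and filters, robust variance, TPM, median-of-ratios scaling, trend removal, a replicate block, a bone marrow score (mean of neutrophil, B cell and erythroid markers) and leaving out libraries. Python 3.11.15 (scipy 1.17.1, pandas 2.3.3, matplotlib 3.10.9) was used for other steps.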

Additional observations from a re-analysis of the deposited data

Results flagged for a closer look

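Of 56 groups of libraries examined (each genotype, for the 27 named members and for the members' median), 2 held a library far from the rest of its group by Dixon's 95% criterion, where chance gives about 1 in 20. Mrps25 measured 4.14 FPKM in Atf6+/+ replicate 5 and 3.16 to 3.29 FPKM in the other 4 Atf6+/+ libraries. Mrpl50 measured 15.51 FPKM in Atf6+/+ replicate 3 and 11.93 to 12.72 FPKM in the other 4.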

How the results depend on the processing

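Read counts per library were not used, so counting error could not be set beside the spread between libraries. No member had an adjusted P under 0.05 by limma in any of the 25 alternatives (the count was 0 in each), and pseudocounts, filters and robust variance left 6 lower and 0 higher at the unadjusted P. Over the 27 named genes, 620 alternative values kept the sign and 55 did not, and 12 genes kept it in every alternative. The cause of the changes below was not tested.

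The number lower at the unadjusted P was 1 with TPM, 1 with the length and GC trend removed, 1 with the length trend alone removed, 1 with the replicate block, 0 with the block and trend removal, 3 with the bone marrow score, 1 without Atf6-/- replicates 5 and 6, and 2 without Atf6+/+ replicates 4 and 5 (both added after seeing the data). The number higher was 1, 9, 10, 0, 8, 0, 1 and 2 in the same order. Of all genes, 2.71%, 3.30%, 3.31%, 4.07%, 2.65%, 3.14%, 2.98% and 6.30% were lower and 8.60%, 7.67%, 7.78%, 2.60%, 5.31%, 1.96%, 3.84% and 4.41% higher in these fits. Leaving out 1 library gave 2 to 10 lower, 0 to 1 higher, 51 to 69 members below 0 and a median of -0.080 to -0.031. The members' median was 0.048 with the replicate block and trend removal, and -0.042 with median-of-ratios scaling.

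Same-numbered libraries did not deviate together (correlations of -0.21 to 0.12 over 5 pairs), so the numbers were not taken as pairs. The replicate block, in which Atf6-/- replicate 6 has no partner, gave 51 members below 0, 1 lower and a median of -0.031.

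Signs turned as follows (log2 fold change). With the length and GC trend removed, Mrps33 was 0.0052, Mrpl20 0.0053, Mrps21 0.10, Mrpl42 0.061, Mrpl52 0.099, Mrpl50 0.10, Mrps18b 0.045, Mrps18c 0.0048 and Mrps36 0.063. With the length trend alone removed, Mrpl20 was 0.0068, Mrps21 0.10, Mrpl42 0.034, Mrpl52 0.12, Mrpl17 -0.0023, Mrps7 0.015, Mrpl50 0.051, Mrps18a 0.0081, Mrps18b 0.047 and Mrps36 0.050. With the replicate block and trend removal, Mrps33 was 0.014, Mrps22 0.0013, Mrps21 0.11, Mrpl42 0.068, Mrpl52 0.10, Mrps7 0.027, Mrpl50 0.11, Mrps18a 0.015, Mrps18b 0.065, Mrps18c 0.086 and Mrps36 0.095. With the replicate block alone Mrpl50 was 0.013, and with median-of-ratios scaling it was 0.0078. With TPM, Mrps21 was 0.00028, Mrpl52 0.014, Mrps7 0.0097 and Mrpl50 0.052. With the bone marrow score, Mrpl50 was 0.059 and Mrps6 -0.0016. Without Atf6-/- replicates 5 and 6, Mrps21 was 0.022, Mrpl52 0.043, Mrps7 0.0010, Mrpl50 0.026 and Mrps36 0.00096. Without Atf6+/+ replicates 4 and 5, Mrpl52 was 0.10, Mrps7 0.059 and Mrps18b 0.014. Leaving out 1 library, Mrps6 ranged from 0.093 to 0.24, Mrps18c from -0.22 to -0.063, Mrpl52 ranged from -0.094 to 0.013, Mrpl17 from -0.021 to 0.063, Mrps2 from -0.0090 to 0.043, Mrps7 from -0.081 to 0.0071 and Mrpl50 from -0.032 to 0.062. Mrpl11 stayed between -0.26 and -0.14 in all alternatives.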
